A study of Mus musculus with 2 samples.

Results

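Bst2, Ifitm2, Ifitm3, Ifi27, Ifi35, Ifit2, Samd9l, Apol9a, Apol9b and Rsad2 are 10 mouse genes whose products act against viruses and which type I interferon is known to induce. They were chosen by name as interferon-induced restriction factors and effectors, with their overexpression and control signals on these arrays already known, and 10 of 7939 genes with a named probe carry these names. The differences below are therefore a description of chosen genes. Each gene had 1 named probe.

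RNA came from SN4741 cells, an immortalized mouse line described as dopaminergic. One group consisted of cells that overexpressed Oxi-beta for 12 h, and its reference consisted of control cells at 0 h. Each group was 1 single-colour Illumina array of RNA pooled from 3 samples, so 2 arrays in all carried the comparison, without replicate arrays, and no test across samples was possible. The number of arrays limits the precision, and hours in culture and overexpression cannot be told apart. Oxi-beta is a name used for Tnfaip8l1, a gene of the Tnfaip8 family. With 0 named probes for it, its own level was not read, and the sources used here do not say if an empty construct went into the control cells.

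Type I interferon binds its receptor at the cell surface, and kinases of the JAK family then pass the signal on. It leads to ISGF3, a complex that contains STAT2 and IRF9 and binds interferon-stimulated response elements (ISREs) and switches on many genes. Some of the proteins sense viral RNA, while effectors such as those described here block steps of the viral life cycle, including entry, replication and release.

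The deposited detection p-value sets a probe's signal against the negative controls of its array, and a probe below 0.01 was counted as detected. The lowest detected signal was 196 on the overexpression array and 201 on the control array, in arbitrary units, and 35.7% and 35.8% of all probes were detected on them. Differences are overexpression minus control on the log2 scale, after background correction and quantile normalization. Among 6470 genes detected on both arrays the central 95% of differences lay between -0.31 and 0.30. In the 1618 dimmest of these genes it lay between -0.40 and 0.39, and in the 1618 brightest between -0.22 and 0.20.

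Of the 10 genes, 9 had a higher deposited signal on the overexpression array and 1, Ifitm2, a lower one. By log2 difference, 8 of the 9 genes detected at all were positive, beside 48.6% of the 6702 genes detected on at least 1 array. Detection separated the 10 genes into 3 kinds. Bst2, Ifitm2, Ifitm3, Ifi35 and Ifit2 were detected on both arrays, Ifi27, Samd9l, Apol9a and Apol9b on the overexpression array only, and Rsad2 on neither. For genes detected on the overexpression array only, a higher value there came with their detection. Of the 9 genes detected at all, 6 were at least 2-fold higher and 7 at least 1.5-fold higher by fitted values, against 0.283% and 0.582% of the 6702 genes detected on at least 1 array. Of the 5 genes detected on both arrays, 2 were at least 2-fold higher and 3 at least 1.5-fold higher, against 0.0773% and 0.247% of the 6470 such genes. Because these genes were chosen with the same contrast known, nothing is read from the gap between their counts and the background. The median difference was 1.71 over the 9 detected genes and 0.74 over the 5 on both arrays, beside medians of -0.004 and -0.003 over all genes of each kind. That 1.71 rests on fitted values, and under the bounds and the floored signals described below it was 1.07 and 0.68.

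**Figure D1:**
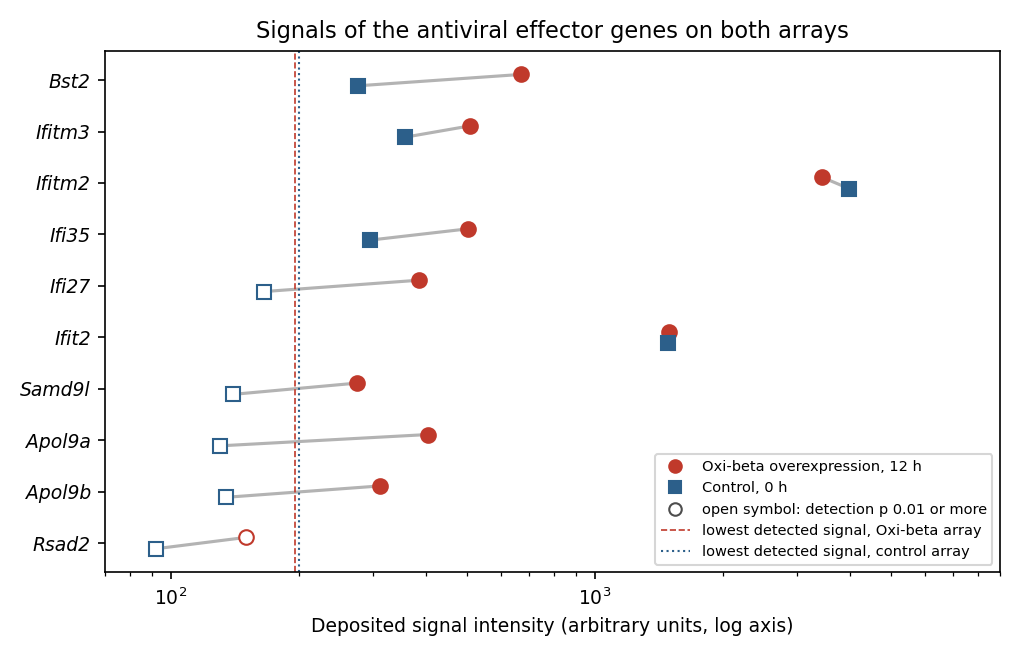
Deposited signal intensity of each gene (arbitrary units, log axis) on the Oxi-beta overexpression array (circles) and the control array (squares), 1 array each, with open symbols at a detection p-value of 0.01 or more and lines at the lowest detected signals, 196 and 201. Signals of Ifit2 (1498 and 1489) lie together, while those of Apol9a (404 and 130) lie on both sides of the lines.

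Bst2 had the widest gap among the genes with a reading on both arrays. It encodes tetherin, a membrane protein that holds budding enveloped viruses at the cell surface. Its signal was 667 on the overexpression array and 276 on the control array, with detection p-values of 0 and 0.0024. The log2 difference was 1.71, or 3.28-fold higher, and it ranked 3 of the 6470 genes detected on both arrays. In the authors' deposited values Bst2 stood at 9.43 on the overexpression array and 8.08 on the control array, a difference of 1.34 and the lowest among the processing settings tried.

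With 1 array a group, likeness to Bst2 is only nearness of the difference, measured over 2 arrays. Above it lay just 2 genes, Irf9 (2.31), the DNA-binding subunit of ISGF3, and Tnfaip8 (3.81), founder of the family to which Tnfaip8l1 belongs. Next below, outside the 10 genes, came Parp12 (1.22), an ADP-ribosyltransferase, then Trim25 (0.96), a ubiquitin ligase of RNA sensing, and Adar (0.80), an RNA-editing enzyme. Parp12 minus Bst2 was -0.49 and Irf9 minus Bst2 was 0.60. Where a gene had several probes, their differences had a pooled SD of 0.149 over 999 genes, a spread that holds nothing of the variation among cultures.

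Promoter windows of RefSeq (mouse GRCm38.p6, 250 bases before to 50 after an annotated start) were found for 9 of the 10 genes, and the stretches that hold ISRE-like letters are printed because the genes share a known inducer that reads such elements. Bases are given 5′ to 3′ on the gene's own strand, with the match in capitals and positions counted from 1 at the start site, negative before it. The motif searched was the ISRE core GAAANNGAA on either strand, where N is any base and TTCNNTTTC is its other strand. In the Bst2 window 2 overlapping matches stood side by side. The stretch printed around them lies at chr8:71537568-71537622 on the minus strand (positions -150 to -96).

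Bst2: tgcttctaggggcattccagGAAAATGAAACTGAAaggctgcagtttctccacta

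The Ifitm genes, which encode small membrane proteins that hinder fusion of incoming viruses with the cell's membranes, did not share a direction. Ifitm3 had signals of 507 on the overexpression array and 356 on the control array, both with a detection p-value of 0. Its log2 difference of 0.74, or 1.67-fold higher, ranked 9 of 6470. It was just under 1.5-fold in the authors' values and with floored signals, at 0.58 in both. Ifitm2 had signals of 3435 and 3974 in the same order and a difference of -0.14, or 1.10-fold lower, at rank 5446. Ifitm1, the relative that lies between them on chromosome 7 among detected genes, had signals of 3176 and 3273 and a difference of 0.05. Median centring gave -0.05, on a scale where the median of all detected genes was -0.10. Both Ifitm2 and Ifitm1 lay inside the central 95% of all genes and Ifitm3 outside it. Whether the Ifitm2 and Ifitm3 probes separate these related transcripts was not tested, as probe sequences were not used here.

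Both promoter windows of the pair held the ISRE core, 1 match in Ifitm2 and 2 in Ifitm3. The longest run of identical bases between the windows was 13. The Ifitm2 match lay before the start, at positions -46 to -38. Those of Ifitm3 lay just past it, at 3 to 11 and 20 to 28. The stretch printed for Ifitm2 lies at chr7:140955979-140956027 on the minus strand (positions -66 to -18). That for Ifitm3 lies at chr7:141010715-141010744 on the minus strand (positions 1 to 30). The first matches of the pair have the same letters, GAAAAGGAA, and the differences were 0.74 for Ifitm3 and -0.14 for Ifitm2. Any link of these letters to the differences was not tested.

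Ifitm2: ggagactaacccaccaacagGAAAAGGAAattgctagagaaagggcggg

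Ifitm3: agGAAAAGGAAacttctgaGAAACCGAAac

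Among the genes named for interferon induction, Ifi35 and Ifi27 were higher on the overexpression array. Ifi35 encodes a leucine zipper protein that pairs with NMI. It had signals of 503 on the overexpression array and 295 on the control array, detection p-values of 0 and 0.0024, and a difference of 1.10, or 2.14-fold, at rank 5 of 6470. In the authors' values its difference was 0.84, or 1.79-fold, and it was also under 2-fold with floored signals (0.84), with an offset of 50 (0.98) and with median centring in place of quantiles (0.997). Ifi27 encodes a small hydrophobic protein of intracellular membranes. Its signals were 384 and 166 on the overexpression and control arrays, with detection p-values of 0 and 0.0231, so its control level is only a bound.

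For a gene detected on the overexpression array only, the fold is written as at least, which holds on the background-corrected scale alone. Its background-corrected value there was set against the lowest value of any probe detected on the control array, or against its own value where that was higher. Ifi27 was at least 2.81-fold higher on that scale. The ratio of its deposited signals, in which background is left, was 2.31, and with signals floored and not corrected it was 1.99-fold higher. The bound thus moves with the background model and is no lower limit for the other scales.

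Apol9a and Apol9b, mouse genes of the apolipoprotein L family with reported antiviral activity, had close readings. Apol9a had signals of 404 on the overexpression array and 130 on the control array, and Apol9b had 310 and 135. Detection p-values were 0 and 0.0985 for Apol9a, and 0.0012 and 0.0839 for Apol9b. Neither control signal was well above background, and both overexpression signals were. Apol9a was at least 2.98-fold higher and Apol9b at least 2.11-fold, with deposited ratios of 3.09 and 2.30. In the authors' values the differences were 1.67 and 1.24. With floored signals Apol9a was 2.09-fold and Apol9b 1.61-fold higher.

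The start regions of this pair are near copies. Their first-listed windows shared an unbroken run of 278 identical bases, offset from each other. The stretch below, the same in both genes, lies at chr15:77411104-77411158 on the minus strand for Apol9a and at chr15:77729016-77729070 on the plus strand for Apol9b. It holds 2 overlapping ISRE cores in the reverse direction. With such similarity the transcripts of the pair may share probe signal, which was not tested, so their readings may not be independent. The counts and medians given here, and the counts of motif matches, still take each of the pair as a gene of its own.

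Apol9a and Apol9b: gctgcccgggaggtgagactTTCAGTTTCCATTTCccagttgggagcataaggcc

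Samd9l, whose product restricts poxviruses and other viruses, had signals of 274 on the overexpression array and 140 on the control array. Detection p-values were 0.0036 and 0.0669. It was at least 1.75-fold higher, its deposited ratio was 1.96, and its value with floored signals was 1.41-fold. This overexpression signal was 1.40 times the lowest detected signal of its array, so Samd9l read closer to the detection limit there than the other detected genes of the 10. Its window held 1 ISRE core past the start, at positions 39 to 47. The stretch printed around it lies at chr6:3399523-3399552 on the minus strand (positions 20 to 49).

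Samd9l: tgtatcagaatcgaaactgGAAACTGAAgc

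Rsad2 and Ifit2 gave no difference to report for opposite reasons, a dim signal and a bright one that was alike on both arrays. Rsad2 encodes viperin, an enzyme whose product ends viral RNA chains early. Its signals of 150 on the overexpression array and 92.2 on the control array had detection p-values of 0.0462 and 0.662. Neither was well above background, so it has no fold and entered no count of folds above. Its window held 1 reverse ISRE core, at positions -119 to -111. The stretch printed around it lies at chr12:26456543-26456591 on the minus strand (positions -139 to -91).

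Rsad2: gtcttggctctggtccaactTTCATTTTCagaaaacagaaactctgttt

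Ifit2, an RNA-binding protein with tetratricopeptide repeats that interferes with translation of viral RNA, was read well above background on both arrays. It had signals of 1498 on the overexpression array and 1489 on the control array, at 7.64 and 7.42 times the lowest detected signals. The log2 difference was 0.08, at rank 1609 of 6470 and inside the central 95% of all genes. Its sign turned under median centring (-0.001), a scaling that moved the median of all detected genes to -0.10, so relative to that median it was 0.10. The related gene Ifit3 had signals of 151 and 95.1 with detection p-values of 0.0426 and 0.600, under the detection threshold on both arrays.

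**Figure D2:**
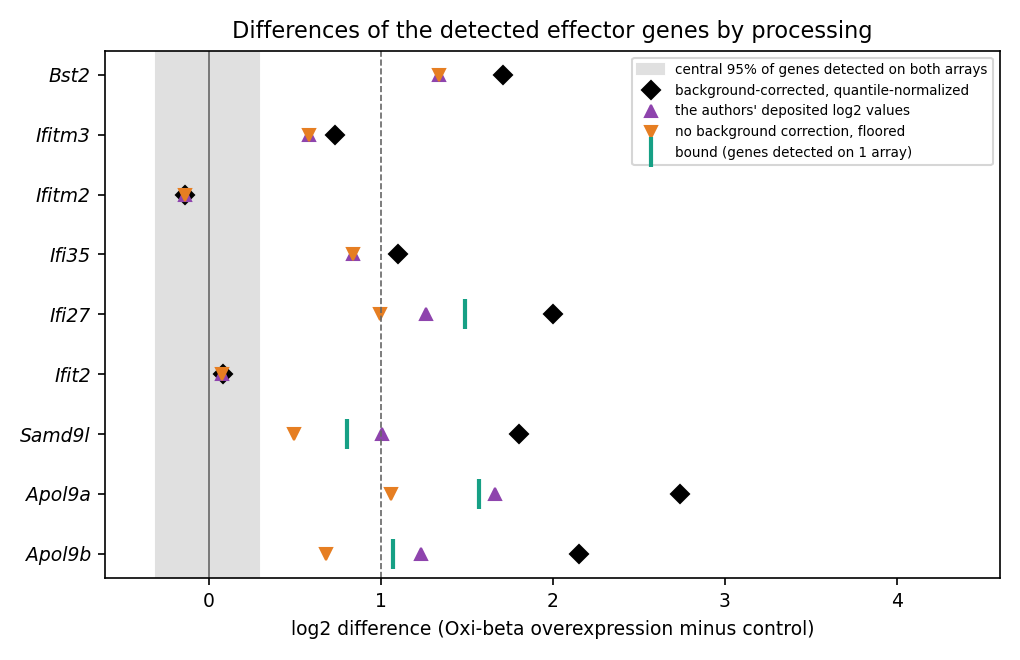
Log2 difference (Oxi-beta overexpression minus control, 1 array each) of the 9 detected genes under 3 ways of processing, with the bound of genes detected on 1 array. The dashed line marks 2-fold and the shaded band the central 95% of genes detected on both arrays (-0.31 to 0.30). Ifitm2 and Ifit2 sit inside the band at each setting, and Samd9l runs from 0.50 to 1.81.

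Across the windows, the ISRE core was found in 7 of the 9 genes with a window, namely Bst2, Ifitm2, Ifitm3, Samd9l, Apol9a, Apol9b and Rsad2. Over all 32851 RefSeq windows 8.56% held it, and by gene 9.76% of 27025 genes did. A second motif was GAS (TTCNNNGAA), the gamma-interferon activation site, which reads the same on both strands. It was found in 4 of the 9 genes, beside 9.55% of the 27025 genes and 8.30% of all windows. In Bst2 it overlapped the first ISRE match, and in Ifitm3 the second. Ifi35 and Ifit2 held GAS and no ISRE core. Ifitm2, with a negative difference, held an ISRE core and Ifi35, with a positive one, did not. Whether matches go with the differences was not tested. A match is a run of letters and not a shown binding site, and the lack of one says only that those letters are not in that window.

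**Figure D3:**
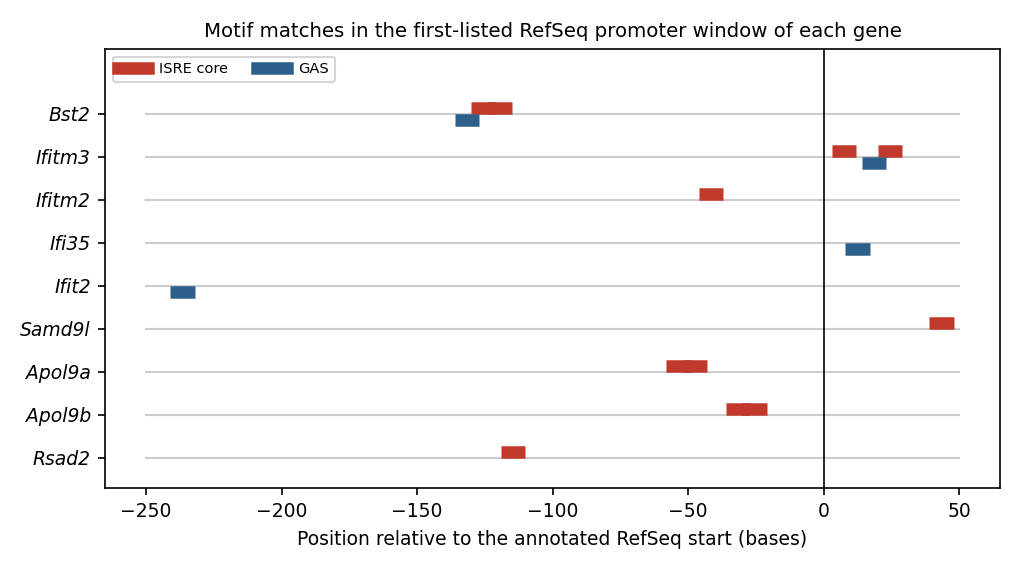
Position of ISRE core and GAS matches relative to the annotated start (bases) in the first-listed RefSeq window of 9 genes, each line running from 250 bases before to 50 after it. The Bst2, Apol9a, Apol9b, Ifitm2 and Rsad2 cores lie before the start and those of Ifitm3 and Samd9l after it.

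The chromosomal neighbours of the 10 genes were read as well. The nearest detected gene on either side in the RefSeq annotation (GRCm38.p6) gave 16 different neighbours outside the 10, with differences between -0.17 and 0.29 and a median of -0.05. Of these, 0 were 1.5-fold higher, where the background was 0.247% of genes detected on both arrays. Likewise 0 were 1.5-fold lower, beside 29 of the 6702 genes detected on at least 1 array. With shares so small, nothing is read from counts of 0 among 16 genes. Gtpbp3 (-0.16) and Mvb12a (0.07) flanked Bst2, Rundc1 (-0.08) and Vat1 (-0.10) flanked Ifi35, and Rbfox2 (-0.09) and Myh9 (-0.03) lay on the outer sides of the Apol9 pair. The highest neighbour was Ddx24 (0.29), next to Ifi27.

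**Figure D4:**
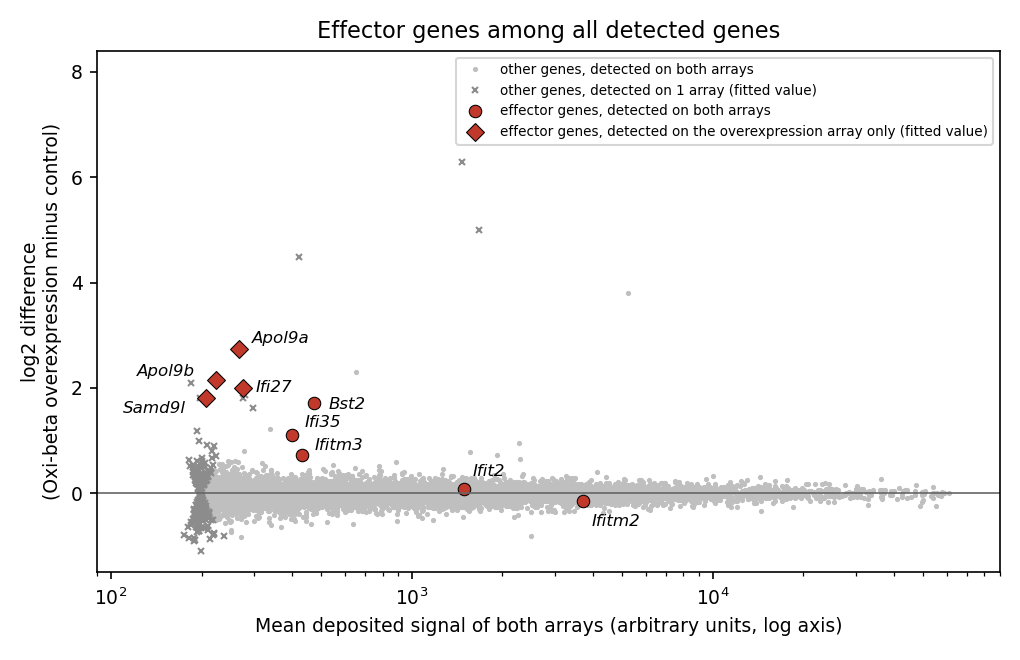
Log2 difference (Oxi-beta overexpression minus control) against the mean deposited signal of both arrays (arbitrary units, log axis) for 6702 genes detected on at least 1 array, with the effector genes in red. Ifit2 (0.08) and Ifitm2 (-0.14) lie within the cloud of other genes, and Bst2 (1.71), Ifi35 (1.10) and Ifitm3 (0.74) lie above it.

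Related genes were read through lists written down for this report. Of 24 relatives in the same families, 4 had a named probe and only Ifitm1 was detected. Apol7a and Ifitm10 joined Ifit3 under the threshold, with signals of 180 and 157 for Apol7a and 149 and 154 for Ifitm10 on the overexpression and control arrays. Gene names were at hand only for probes that passed 0.05 on one array or the other, so a relative without a named probe may be undetected or have no probe at all.

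Of 45 other antiviral effectors, 13 had a named probe and 10 were detected, each on both arrays. Of these, 8 had a positive and 2 a negative difference, and the median was 0.17. Over all 6702 genes detected on at least 1 array, 48.6% had a positive difference. Zc3hav1, the zinc finger protein ZAP that binds CpG-rich viral RNA, was the only one at 1.5-fold or more, at signals of 1022 on the overexpression array and 753 on the control array and a difference of 0.60. Among the 6470 genes detected on both arrays 0.247% reached that fold. In the authors' values Zc3hav1 was at 0.54, under 1.5-fold. Mov10, an RNA helicase, was at 0.33 and Pml, the scaffold of nuclear bodies, at 0.25. Isg20 (0.06), an exonuclease, Ly6e (-0.02), a surface protein that affects virus entry, and Samhd1 (-0.04), which depletes nucleotides, were the lowest. Pml, Isg20, Ly6e and Samhd1 lay within the central 95% of genes detected on both arrays (-0.31 to 0.30), and Mov10 just above it.

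Genes that carry the interferon signal were uneven. Of 18 ligands, receptors, kinases and factors, 11 had a named probe, 10 were detected, and 3 of these, Irf9, Irf7 and Stat2, were at least 1.5-fold higher by fitted values. Among the 6702 genes detected on at least 1 array, 0.582% reached that fold. Irf9 had signals of 1014 on the overexpression array and 288 on the control array and was 4.96-fold higher. Stat2, its partner in ISGF3, was at 0.59 with signals of 279 on the overexpression array and 221 on the control array, near the detection limit, and at 0.38, under 1.5-fold, in the authors' values. Irf7, the factor that amplifies interferon production, was detected on the overexpression array only, at signals of 233 and 153, and was at least 1.35-fold higher, a bound under 1.5-fold. The receptor genes Ifnar2 (-0.10) and Ifngr1 (-0.11) and the kinase gene Jak2 (-0.10) were the lowest. The ligand genes Ifnb1, Ifna1, Ifna4, Ifnl2 and Ifng had no named probe.

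Of 9 negative regulators, 7 had a named probe, and these were detected and 0 reached 1.5-fold. Among the 6470 genes detected on both arrays 0.247% did, so nothing is read from a count of 0 in so few genes. Socs1, an inhibitor of JAK kinases that interferon induces, was highest at 0.39, followed by the phosphatase genes Ptpn11 (0.33) and Ptpn1 (0.15). Pias3 (0.001), Socs3 (-0.06) and Ptpn6 (-0.23) were lowest, and the median was 0.07. Under median centring that median was -0.04, against -0.10 for all genes.

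Interferon-induced GTPases, which act on intracellular pathogens, and class I antigen presentation genes are set beside the 10 genes without a test. Of 15 GTPase genes 3 had a named probe, and these 3 were detected, each at least 1.5-fold higher by its fitted value. Over the 6702 genes detected on at least 1 array, 0.582% reached that fold. Igtp and Gbp3 were detected on the overexpression array only, so a higher value there came with their detection. Igtp had signals of 254 and 115 on the overexpression and control arrays and was at least 1.56-fold higher, Gbp3 had 261 and 133 and was at least 1.62-fold higher, and Irgm1 had 1900 and 1218 and a difference of 0.78. Of 18 class I presentation genes 9 had a named probe, 8 were detected and 0 reached 1.5-fold, with a median of 0.10. Psmb10, an immunoproteasome subunit, was at 0.21, and B2m, the light chain, at 0.17, while Tapbp, which loads peptides, was detected on the overexpression array only, at signals of 208 and 200 on the overexpression and control arrays, a ratio of 1.04. Psme2 (0.06), a proteasome activator subunit, and H2-D1 (-0.04) and H2-T23 (-0.08), heavy chains of class I, were the lowest.

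**Figure D5:**
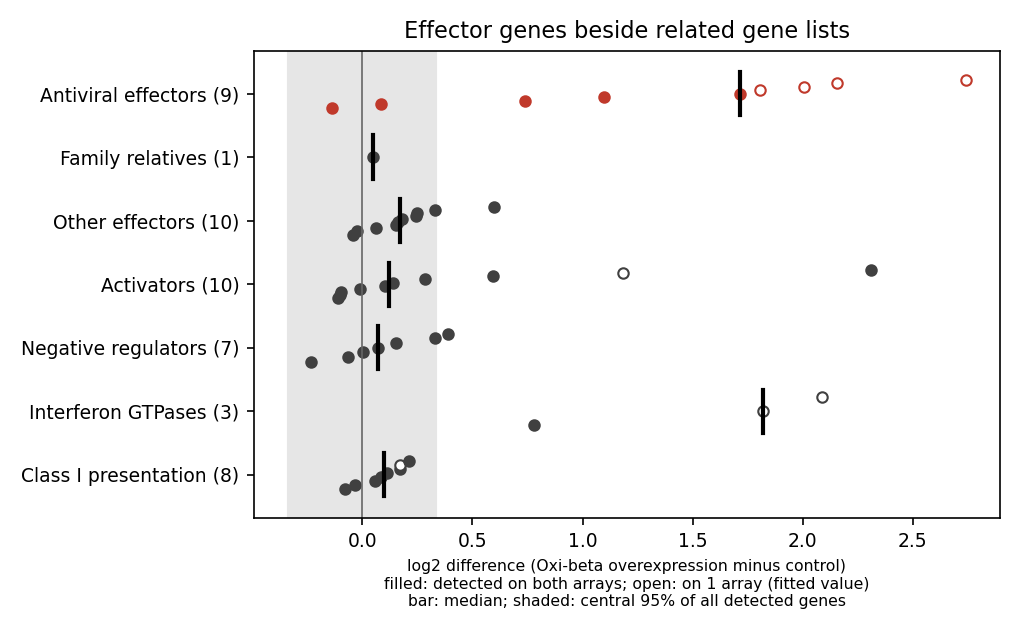
Log2 differences (Oxi-beta overexpression minus control) of the 9 detected effector genes and of 6 related lists, with the number detected in brackets, the median as a bar and the central 95% of all detected genes shaded (-0.34 to 0.33). Medians were 1.71 for the effectors, 0.17 for other effectors, 0.12 for activators, 0.07 for negative regulators and 0.10 for class I presentation. The GTPase median was 1.82 (0.70 with bounds and 0.42 with floored signals). For the effectors the median was 1.07 with bounds and 0.68 with floored signals, the value of Apol9b in each. Open points are fitted values of genes read on 1 array.

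Markers of the labelled cell type and of other cells were read beside these genes. Of 10 dopamine neuron markers, 3 were detected, Nr4a2 (0.24), En1 (0.15) and Foxa2 (0.10). Another, dimmer En1 probe, detected on the control array only, was at -0.17. Th, Slc6a3, Slc18a2 and Ddc, which define dopamine synthesis and transport, had no named probe. Of 13 pan-neuronal markers 6 were detected, with a median difference of 0.14. Nefm (0.57) and Tubb3 (0.38), both read on the overexpression array only, and Syn1 (0.17) and Uchl1 (0.11) were positive, and Stmn2 (-0.19) and Ncam1 (-0.39) negative. The values of Nefm and Tubb3 are fitted, and a higher value came with their detection. Their bounds were 0.36 and 0.09, and with bounds the pan-neuronal median was 0.10. Summed signals of the 6 pan-neuronal markers were 5546 on the overexpression array and 6264 on the control array, with Stmn2 at 3357 and 4050 of these. Of 10 fibroblast markers 6 were detected, each with a negative difference by its brightest probe (median -0.14). Summed signals of these 6 were 71886 on the overexpression array and 80412 on the control array. The 6 were Vim (-0.07), S100a4 (-0.07), Fn1 (-0.13), Col1a1 (-0.14), Sparc (-0.30) and Pdgfrb (-0.40). Other Fn1 probes, dimmer and detected on both arrays, were positive, at 0.09 and 0.06. Bst2 is also a marker of plasmacytoid dendritic cells, for which 1 of 6 genes, Tcf4, was detected (-0.04) and the defining receptor gene Siglech was under the threshold on both arrays, at signals of 176 and 162 on the overexpression and control arrays. Of 10 myeloid markers Cd14 alone was detected, at signals of 321 and 302, with Ptprc, Aif1 and Csf1r lacking a named probe. The part of these markers in the differences above was not tested. In pooled RNA of a culture, a change in the share of cells and a change in RNA per cell cannot be told apart.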

How the data were processed

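Per the file headers, the authors' non-normalized table gives 24613 probes, each with an intensity and a detection p-value per array; BeadStudio is named, without a version, in the submitters' processing notes. Of its columns, one is headed control, and the one headed test was matched to the overexpression sample, the sole one that is not the control. The authors' value table holds deposited log2 values of 11090 probes, namely those that pass 0.05 on either array. Its scale and quantile step are read from the values (both sorted columns are equal) and are not stated. Symbols came from the platform's annotation, and 0 needed updating through RefSeq.

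Intensities were background-corrected with limma 3.58.1 in R 4.3.3 (nec, offset 16, negative controls inferred from detection), then normalized by quantiles and log2-transformed. For a gene with several named probes the brightest on average was used. The steps were tested on simulated data, in which known folds were put only into probes detected on the control array. That test does not cover genes detected on the overexpression array only. Named genes were all 10 members, the 3 highest and 3 lowest detected genes of each list (all where 6 or fewer), and up to 3 genes on either side of Bst2. Other neighbours and undetected relatives were named after their values were seen. Members and lists were chosen with earlier results of these data known. The closing section gives 8 alternatives. Value columns left unused numbered 0.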

Additional observations from a re-analysis of the deposited data

How the results depend on the processing

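The number of the 10 genes at 2-fold or more (6) became 2 with uncorrected, floored signals and 2 with only genes detected on both arrays, and lay at 5 or 6 under the other settings. At 1.5-fold the count (7) became 5 with uncorrected, floored signals, 6 with the authors' values and 3 with only genes detected on both arrays. It became 8 at a detection p-value under 0.05, where Rsad2 enters through its overexpression signal, and stayed at 7 under the other settings. Over all genes, the 19 at 2-fold or more higher became 8 with floored signals and 5 with only genes detected on both arrays. The GTPase median (1.82) was 0.42 with floored signals, 1.33 with offset 50, 0.997 with the authors' values, 0.78 with only genes detected on both arrays and 0.70 with bounds. The median of family relatives (0.05) was 0.25 at a detection p-value under 0.05, where more genes enter. The other list medians moved by less than 0.149, though under median centring those of family relatives (-0.05) and negative regulators (-0.04) were negative, as was Ifit2 (-0.001), on a scale where the median of all genes was -0.10 and these lay above it. Averaging the detected probes of a gene could not change a count of the 10 genes, as each had 1 named probe. Among single genes, those detected on 1 array moved most, Apol9a between 1.06 and 2.74. No paired analysis was possible because each group had 1 array, so no array could be left out either. Signal over background on the control array limits Rsad2, Apol9a, Apol9b and Samd9l most.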
